A study of Rattus norvegicus with 12 samples.

Results

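The genes described here encode the transferases of phase II metabolism, in which lipophilic drugs, toxins, hormones, bilirubin and bile acids are joined to a polar group before export in bile or urine. They were all genes of the table whose symbol begins with GST (cytosolic and kappa glutathione S-transferases), UGT (UDP-glucuronosyltransferases of families 1 to 3) or SULT (cytosolic sulfotransferases of families 1 to 6) and whose highest value over the 12 columns was at least 1 RPKM. The name rule found 36 genes and 32 of them passed the level, 16 GST, 7 UGT and 9 SULT genes among 14692 genes listed. The 4 that did not pass were UGT2A1, SULT5A1, SULT1D1 and GSTM6L, with highest values of 0.30, 0.25, 0.18 and 0.04 RPKM, and the members closest to the level were SULT2B1, SULT1C2 and GSTO2 at 1.24, 1.79 and 2.05 RPKM.

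GST enzymes attach glutathione to electrophiles and also bind bile acids and bilirubin without conjugating them. UGT enzymes of the endoplasmic reticulum transfer glucuronic acid from UDP-glucuronic acid, and SULT enzymes of the cytosol transfer sulfate from the donor PAPS. The adult hepatocyte is the main site of all 3 reactions, and nuclear receptors and stress-sensing factors, among them CAR, PXR, FXR and NRF2, regulate many of these genes.

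RNA was sequenced from whole liver of male Sprague Dawley rats, 4 to 5 months old, at 0, 4, 12 and 24 h after partial hepatectomy (PH), in which most of the liver was removed. Control rats had a sham biliary fistula 24 h before PH, and rats of the other 2 groups had a biliary fistula, a catheter that drains bile out of the body, over the same time. One of these 2 groups also received sodium taurocholate, a bile acid, into the duodenum, and every rat, sham-operated rats included, carried a duodenal catheter with saline. The sample titles call the fistula groups BF and BA. The sample descriptions assign the infusion to the samples titled BF, whereas the study uses BF for the fistula alone and BA for the fistula with infusion, so the groups are named here by their titles and which of them was infused is not settled. CYP7A1, the rate-limiting enzyme of bile acid synthesis, measured 60.0, 4.59, 8.53 and 57.3 RPKM in Control over the 4 times, 387, 13.8, 136 and 334 RPKM in BF, and 54.9, 1.81, 3.17 and 68.8 RPKM in BA.

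The deposited values are RPKM, read counts divided by transcript length and by the mapped reads of the library. There was 1 column for each group and time, 12 in all, and the authors combined 2 runs into each, a first with the RNA of 1 rat and a second with the pooled RNA of 3 more, so a value represents 4 rats and their spread is not known. In a plain mean of the 2 runs, the 1 rat of the first weighs as much as the 3 pooled rats together. The number of reads per library is unknown. Summed RPKM was 727435 to 982826 per column. Albumin took 30.9% of the total in BA at 4 h and 5.60% to 13.4% in the other columns. Most pancreatic acinar markers stood apart in BF at 12 h, with CTRB1 at 84.7 RPKM there and at most 0.57 RPKM in the others (8 of 9 acinar markers listed, summed level 9.85 to 23.2 RPKM in Control, 5.98 to 12.1 RPKM in BA, at least 5.10 RPKM in BF, and 138 RPKM in BF at 12 h). The acinar marker CELA1 did not, at 6.03 RPKM in BF at 12 h and 9.31 to 22.5 RPKM in Control. CELA1 made up most of the acinar sum in every column but BF at 12 h. Hepatocyte markers ALB, TTR, SERPINA1, TF and CPS1 were high in every column (summed level 79789 to 345997 RPKM). The summed level of 10 acute phase genes varied with group and time. They summed to 42678, 94719, 178145 and 110741 RPKM in Control at 0, 4, 12 and 24 h, to 117809, 154069, 199249 and 130840 RPKM in BF, and to 122767, 163823, 196596 and 152512 RPKM in BA, so Control at 0 h was the lowest column. Of the 10, limma with BH adjustment called 3, 6 and 2 higher at 4, 12 and 24 h, where 12.4%, 8.66% and 30% of all genes were. No group contrast called one. An unadjusted p under 0.05 was reached by 5 of them in BF and 8 in BA against Control, and by 1923 and 1986 of the 9063 genes tested. In whole liver, fewer cells of a type and less RNA per cell cannot be told apart.

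Differences were fitted with limma on log2(RPKM + 1), with group and time as additive terms over the 12 columns, for 9063 genes whose highest value was at least 1 RPKM. A time difference is therefore averaged over 3 groups and a group difference over 4 times, and the spread is what the additive terms leave (6 residual degrees of freedom), which counts any group-by-time difference as error. A gene was called at a Benjamini-Hochberg (BH) adjusted p under 0.05 over all 9063 genes. The median residual SD was 0.33 on the log2 scale for the 32 members and 0.17 for all genes. Differences between 2 single columns are log2 ratios after adding 1 RPKM, have no replicate check, and were counted when at least 2-fold. Adding 1 RPKM understates the change of the genes at a few RPKM or less. Below, 4 values in a row are those at 0, 4, 12 and 24 h.

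The 3 classes together took from 0.458% (BA at 12 h) to 1.86% (Control at 0 h) of all RPKM. Summed GST level was 5221, 3887, 1544 and 2674 RPKM in Control at 0, 4, 12 and 24 h, 2382, 1484, 1104 and 2423 RPKM in BF and 1915, 1684, 998 and 1765 RPKM in BA. Control at 0 and 4 h stood above every fistula column. At 0 h BF held 45.6% of the Control level and BA 36.7%, and at 24 h they held 90.6% and 66%. Summed UGT level was 2305, 1825, 1075 and 2078 RPKM in Control, 2092, 1507, 979.9 and 1946 RPKM in BF and 1734, 1245, 939.8 and 1493 RPKM in BA. The UGT totals kept closer together, with BF at 82.6% to 93.6% of Control over the 4 times and BA at 68.2% to 87.4%. Summed SULT level was 6323, 3966, 1796 and 4332 RPKM in Control, 4330.4, 2871, 2635 and 4965 RPKM in BF and 3399.5, 1944, 1392 and 4505 RPKM in BA. SULT totals were below Control in both fistula groups at 0 and 4 h and above it in both at 24 h (115% of Control in BF and 104% in BA). Each class was lowest at 12 h in all 3 groups, and SULT1E1 was the most abundant SULT gene in every column except BA at 12 h, where SULT1A1 was. These totals are descriptions of single columns and were not tested.

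**Figure D1:**
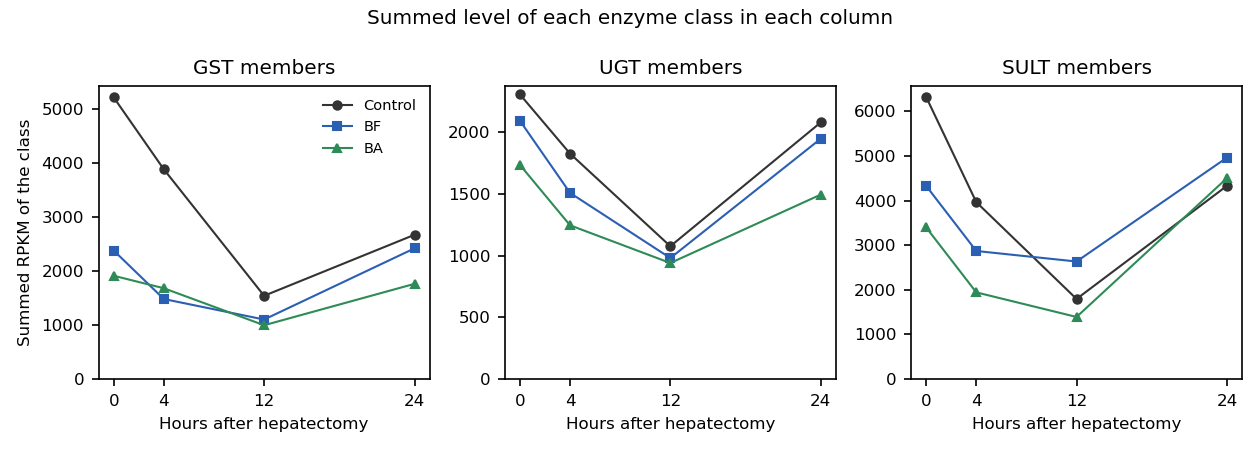
Summed RPKM of the 16 GST, 7 UGT and 9 SULT members (y axis, linear from 0, scaled per panel) against hours after PH (x axis), 1 point for each group and time and no error, since each column is 1 combined value. All 3 totals were lowest at 12 h in every group, and the gap between Control and the fistula groups at 0 h was widest for GST (5221 RPKM against 2382 and 1915 RPKM).

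The clearest difference in these genes was with time. Over the 3 groups, 21 of 32 members were called lower at 12 h than at 0 h and none higher (limma with BH adjustment). These were 11 GST, 5 UGT and 5 SULT genes. Of all 9063 genes, 21.6% were called lower and 8.66% higher. An unadjusted p under 0.05 was reached by 24 of 32 members and by 3822 of all 9063 genes. The median log2 difference of the 32 members was -1.04, against -0.11 for all genes, and by class it was -1.04 for GST, -0.93 for UGT and -1.26 for SULT. In 23 members the 12 h value was below the 0 h value in each of the 3 groups, as it was in 42% of all genes, and in 19 members every 12 h column lay below every 0 h column, as in 32.1% of all genes. Control weighed on this count: without its 0 h or its 12 h column 13 members were called, and without the Control group 10. Of the 21 calls, 13 were kept in each of 12 fits that left out 1 column. The other 8 were those of GSTA3, GSTT1, GSTP1, SULT1E1, SULT2A1, UGT2B5, UGT1A1 and UGT2B17, each lost without Control at 0 h and without Control at 12 h. Apart from SULT1C2, which reached 1 RPKM only in Control at 0 h, 20 members were called. Without the BF column at 12 h 21 were called. The acute phase list moved the other way between the same columns (6 of 10 genes called higher at 12 h, among them LCN2 by 4.32 and FGG by 1.72 on the log2 scale), and its part in the members' levels was not tested.

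**Figure D2:**
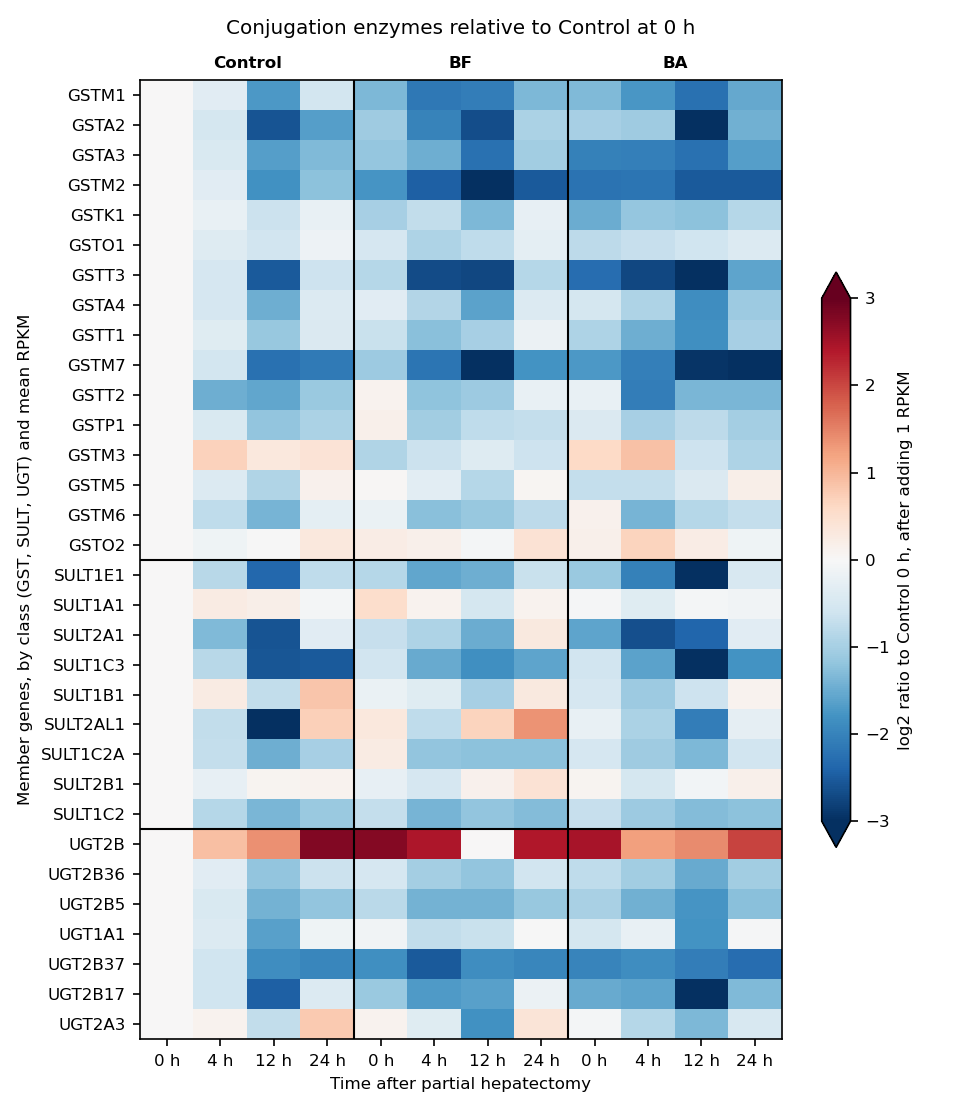
Log2 ratio of each of the 32 members (rows, by class and mean level) to its own value in Control at 0 h, after adding 1 RPKM, for 12 columns (Control, BF and BA at 0, 4, 12 and 24 h); colours saturate at a size of 3. Most rows are darkest blue at 12 h, for example GSTA2 and SULT1C3, and UGT2B is the row that is red in most columns. Its Control value at 0 h was the lowest of the 12.

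Among the alpha class, whose enzymes reduce lipid hydroperoxides and bind bile acids and bilirubin, GSTA2 changed most. It was at 1063, 737, 175 and 336 RPKM in Control, at 508, 264, 166 and 550.5 RPKM in BF and at 536, 507, 46.4 and 389.6 RPKM in BA. The 3 columns at 12 h were the 3 lowest, and the BA column at 12 h was the lowest of all. GSTA2 fell by 2.57 (SE 0.48, limma BH-adjusted p = 0.00502) on the log2 scale between 0 and 12 h, the largest fall of any member, with a residual SD of 0.72 that also made it one of the less even ones. GSTA3 was at 1022, 742, 323 and 406 RPKM in Control, at 457, 370.0, 217 and 497 RPKM in BF and at 249, 244, 214 and 323 RPKM in BA. Control at 0 and 4 h stood above all other columns, and the 12 h values of BF and BA were below their own 0 h values by a smaller factor than in Control. GSTA3 fell by 0.98 (SE 0.31, limma BH-adjusted p = 0.0393) at 12 h, a call that was lost with columns rescaled on the median gene (-0.85, limma BH-adjusted p = 0.0664) and kept in 7 of 12 fits that each left out 1 column. GSTA4, which conjugates the lipid peroxidation product 4-hydroxynonenal, was at 94.0, 65.9, 33.4 and 70.1 RPKM in Control, at 74.5, 51.1, 30.2 and 70.2 RPKM in BF and at 64.8, 48.9, 25.0 and 43.9 RPKM in BA. Its 12 h columns lay below every other column, and it fell by 1.36 (SE 0.12, limma BH-adjusted p = 0.000253) at 12 h. Smaller differences were also called at 4 h (-0.48) and at 24 h (-0.35). The 4 h call of GSTA4 was lost with columns rescaled on the median gene (-0.28, limma BH-adjusted p = 0.0993), and its 24 h call was kept in 3 of 12 fits that each left out 1 column.

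The mu class conjugates epoxides and other electrophiles, and 6 of its members were measured. GSTM1 was at 1166, 922, 353 and 799 RPKM in Control, at 461, 263, 276 and 456 RPKM in BF and at 463, 346, 248 and 400.4 RPKM in BA. Control at 0, 4 and 24 h lay above every fistula column, and Control at 12 h lay within their range. GSTM2 was at 825, 655, 235 and 353 RPKM in Control, at 242, 151, 69.8 and 142 RPKM in BF and at 178, 179, 142 and 143 RPKM in BA. Its 3 highest columns were Control at 0, 4 and 24 h, and every BA column lay below every Control column. GSTM7 was at 143, 97.8, 29.4 and 31.9 RPKM in Control, at 66.0, 30.5, 15.2 and 40.3 RPKM in BF and at 42.3, 33.6, 17.8 and 14.4 RPKM in BA. In each group its 12 and 24 h values were below its 0 h value. Between 0 and 12 h GSTM7 fell by 1.83 (SE 0.34, limma BH-adjusted p = 0.00471), GSTM2 fell by 1.30 (SE 0.27, limma BH-adjusted p = 0.00774) and GSTM1 fell by 1.12 (SE 0.23, limma BH-adjusted p = 0.00808). GSTM6, a weak member, was at 2.86, 1.27, 0.48 and 2.15 RPKM in Control, at 2.34, 0.63, 0.76 and 1.24 RPKM in BF and at 3.21, 0.47, 1.12 and 1.37 RPKM in BA. It was highest at 0 h in each group and fell by 1.10 (SE 0.20, limma BH-adjusted p = 0.00425) at 12 h. The other mu genes did not pass the test at 12 h: GSTM3 ranged from 2.12 to 9.95 RPKM and GSTM5 from 2.66 to 6.73 RPKM over the 12 columns.

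The theta class handles small halogenated compounds and sulfate esters. GSTT3 was at 322, 226, 55.4 and 210.1 RPKM in Control, at 178, 48.9, 47.3 and 177 RPKM in BF and at 65.3, 47.4, 25.3 and 107 RPKM in BA. Every 12 h column lay below every 0 h column, and Control exceeded both fistula groups at each time. It fell by 1.91 (SE 0.36, limma BH-adjusted p = 0.00499) at 12 h. GSTT2 was at 75.6, 26.9, 25.1 and 34.1 RPKM in Control, at 81.6, 32.2, 35.2 and 64.9 RPKM in BF and at 64.6, 17.3, 28.7 and 28.8 RPKM in BA. All 3 columns at 4 h already lay below all 0 h columns, and the fitted differences from 0 h were -1.54 (SE 0.19, limma BH-adjusted p = 0.000561) at 4 h, -1.29 at 12 h and -0.86 at 24 h. GSTT1 (23.4 to 85.8 RPKM) fell by 0.79 (SE 0.21, limma BH-adjusted p = 0.0195) at 12 h.

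Of the remaining GST genes, GSTP1, the pi class enzyme that is scarce in normal rat hepatocytes and marks preneoplastic foci, was at 13.5, 9.54, 5.35 and 6.55 RPKM in Control, at 15.2, 6.08, 7.56 and 7.85 RPKM in BF and at 9.75, 6.23, 7.47 and 6.10 RPKM in BA. The 0 h columns were the 3 highest, and GSTP1 was called lower at all 3 times. Its differences from 0 h were -0.74 at 4 h, -0.82 at 12 h and -0.80 at 24 h on the log2 scale (limma BH-adjusted p = 0.0149, 0.0148 and 0.0133). The 4 h call of GSTP1 was lost with columns rescaled on the median gene (-0.57, limma BH-adjusted p = 0.052). Its calls at 4, 12 and 24 h were kept in 8, 9 and 9 of 12 fits that each left out 1 column. GSTK1 of mitochondria and peroxisomes (77.6 to 218 RPKM) and GSTO1, a dehydroascorbate reductase (93.1 to 179 RPKM), had the smallest ratio of highest to lowest column (2.81 and 1.92) among GST genes above 20 RPKM, and neither passed the test at 12 h (-0.24 and -0.22, limma BH-adjusted p = 0.374 and 0.291). GSTO2 stayed between 0.76 and 2.05 RPKM.

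Among the UGT genes, UGT2B17, UGT2A3, UGT1A1, UGT2B5 and UGT2B36 were called lower at 12 h. UGT2B36, a family 2B enzyme of steroid and drug glucuronidation, was at 679.8, 538, 298 and 436 RPKM in Control, at 481, 336, 299 and 458 RPKM in BF and at 398, 331, 239 and 328 RPKM in BA. UGT2B5 was at 417, 305, 156 and 182 RPKM in Control, at 236, 156, 155 and 191 RPKM in BF and at 211, 153, 122 and 174 RPKM in BA. UGT2B17 was at 202, 133, 36.4 and 152 RPKM in Control, at 92.4, 61.2, 64.9 and 177 RPKM in BF and at 69.8, 66.2, 21.7 and 80.1 RPKM in BA. In all 3 genes every 12 h column lay below every 0 h column, and UGT2B17 fell by 1.53 (SE 0.35, limma BH-adjusted p = 0.0117), the most of the UGT genes. The UGT2B17 call was lost without Control at 0 h or at 12 h (limma BH-adjusted p = 0.0559 and 0.0605) and without the whole Control group (-1.07, limma BH-adjusted p = 0.126). UGT1A1 and UGT2B5 also lost their calls without either of these columns. UGT1A1, which conjugates bilirubin, ranged from 78.7 RPKM (BA at 12 h) to 274 RPKM (Control at 0 h) and fell by 1.15 (SE 0.27, limma BH-adjusted p = 0.0121). UGT2A3 (9.94 to 65.3 RPKM) fell by 1.32 (SE 0.26, limma BH-adjusted p = 0.00592). UGT2B37 ranged from 98.9 to 572 RPKM, with Control at 0 and 4 h above all other columns, and its difference at 12 h was -0.65 (SE 0.40, limma BH-adjusted p = 0.239).

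UGT2B had a 12 h value above its 0 h value in Control and below it in BF and BA. It was at 122, 227, 317 and 846 RPKM in Control, at 829, 662, 122 and 650.3 RPKM in BF and at 685, 285, 328 and 503 RPKM in BA. In Control it was lowest at 0 h and highest at 24 h, whereas in both fistula groups the 0 h value was the highest, 685 to 829 RPKM against 122 RPKM in Control. The ratio of 12 h to 0 h was 1.37 on the log2 scale in Control, -2.75 in BF and -1.06 in BA. Averaged over groups, no time or group difference of UGT2B was called (12 h minus 0 h, log2 -0.81, SE 0.69, limma BH-adjusted p = 0.402), and the SE was the largest of any member. Whether the time courses differ between groups cannot be tested with 1 column each.

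The most abundant member of all was SULT1E1, the estrogen sulfotransferase, with rank 44 of all listed genes by mean level. It was at 3707, 2077, 718 and 2175 RPKM in Control, at 2054, 1258, 1344 and 2336 RPKM in BF and at 1708, 907, 395 and 2660.4 RPKM in BA. The 12 h value was the lowest in Control and BA, while in BF the 4 h value was the lowest, and by 24 h BF and BA stood above their own 0 h values. SULT1E1 fell by 1.70 (SE 0.38, limma BH-adjusted p = 0.0107) at 12 h and its 24 h difference was 0.02. SULT2A1, which sulfates bile acids and hydroxysteroids, was at 777, 309, 127 and 618 RPKM in Control, at 478, 411, 274 and 959 RPKM in BF and at 259, 124, 148 and 614 RPKM in BA. Its 3 lowest columns were BA at 4 h, Control at 12 h and BA at 12 h, and BF exceeded BA at each of the 4 times. SULT2A1 fell by 1.40 (SE 0.35, limma BH-adjusted p = 0.0175) at 12 h. SULT1C3 was at 801, 450.1, 134 and 138 RPKM in Control, at 541, 279, 223 and 265 RPKM in BF and at 542, 263, 82.9 and 231 RPKM in BA. The 0 h columns were the 3 highest, and the gene was still low at 24 h. It fell by 2.18 (SE 0.36, limma BH-adjusted p = 0.00303) at 12 h, and at 24 h it fell by 1.59 (SE 0.36, limma BH-adjusted p = 0.00911).

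SULT1A1, which sulfates phenols, varied less between columns than SULT1E1, SULT2A1 and SULT1C3. It was at 516, 609, 584 and 496 RPKM in Control, at 739.9, 553, 359 and 559 RPKM in BF and at 501, 399.8, 496 and 483 RPKM in BA. Its highest column was 2.06 times its lowest, and no contrast called it (12 h minus 0 h, log2 -0.29, SE 0.22, limma BH-adjusted p = 0.345). SULT1B1, which sulfates thyroid hormones, ranged from 166 to 635 RPKM and was not called at 12 h (log2 -0.56, SE 0.23, limma BH-adjusted p = 0.0956). SULT2AL1, listed in RefSeq as Sult2a6, ranged from 19.3 RPKM in Control at 12 h to 410.0 RPKM in BF at 24 h. BF held 256 RPKM at 12 h and BA 37.7 RPKM, and its fitted 12 h difference of -1.50 (SE 0.60, limma BH-adjusted p = 0.0866) was not called. The other 2 SULT1C genes were near 1 RPKM. SULT1C2 was at 1.79, 0.53, 0.07 and 0.28 RPKM in Control, at 0.69, 0.06, 0.23 and 0.13 RPKM in BF and at 0.73, 0.31, 0.14 and 0.19 RPKM in BA. SULT1C2A was at 2.24, 0.97, 0.18 and 0.62 RPKM in Control, at 2.82, 0.42, 0.37 and 0.39 RPKM in BF and at 1.27, 0.55, 0.27 and 1.16 RPKM in BA. Both were highest at 0 h in each group, and SULT1C2A was called lower at 12 h, by a log2 difference of -1.26 (limma BH-adjusted p = 0.00461). SULT1C2 passed the level of 1 RPKM only through Control at 0 h, so a lower value at later times was favoured by the choice of genes and its calls support nothing. SULT2B1, a cholesterol sulfotransferase, reached 1 RPKM in 1 column, BF at 24 h.

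**Figure D3:**
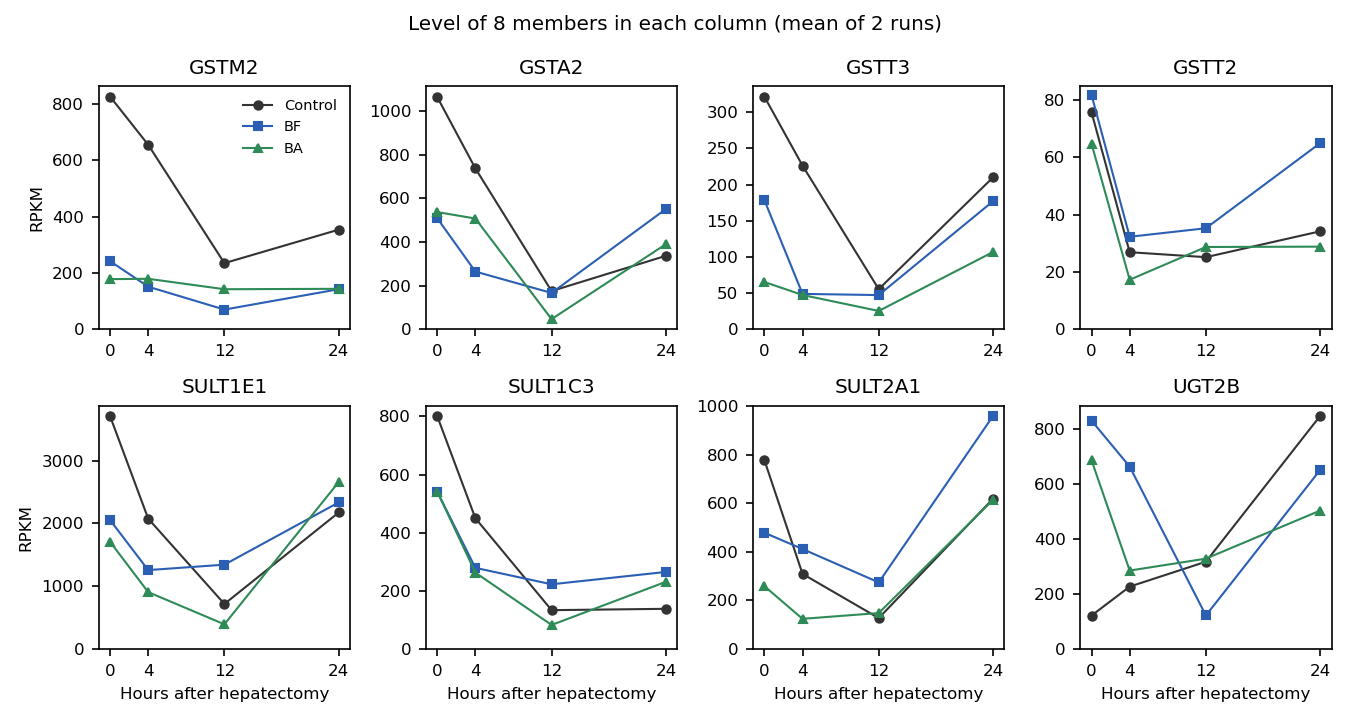
RPKM (y axis, linear from 0, scaled per panel) of 8 members against hours after PH (x axis), 1 point for each group and time, each the authors' mean of 2 runs, with no error. GSTM2 is lower in BF and BA than in Control at every time, GSTT2 has dropped by 4 h, SULT1C3 is still low at 24 h, and UGT2B starts low in Control only (122 RPKM against 829 RPKM in BF and 685 RPKM in BA).

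Fewer members were lower at 4 and 24 h than at 12 h. At 4 h, 6 of 32 members were called lower than at 0 h and none higher (31.5% of all genes were called lower and 12.4% higher). Apart from SULT1C2, 5 were called. The count was 12 without Control at 4 h and 3 without BF at 4 h, so it is not read against the share of all genes. The 6 were GSTT2, GSTM6, SULT1C2A, GSTP1, SULT1C2 and GSTA4, with log2 differences from -1.54 to -0.48. An unadjusted p under 0.05 was reached by 13 of 32 members and by 4781 of all 9063 genes. No UGT gene passed at 4 h, and the median difference was -0.45 for the 32 members and -0.19 for all genes. At 24 h, 8 members were called lower and none higher, where 5.66% of all genes were called lower and 30% higher. These were SULT1C3, GSTM7, GSTT2, SULT1C2A, GSTP1, SULT1C2, GSTM6 and GSTA4, again with no UGT gene. An unadjusted p under 0.05 was reached at 24 h by 11 of 32 members and by 4247 of all 9063 genes. GSTM7 fell by 1.44 (SE 0.34, limma BH-adjusted p = 0.0107) at 24 h. Apart from SULT1C2, the 24 h calls of SULT1C3 and GSTT2 were kept in each of 12 fits that left out 1 column, while that of GSTM6 was kept in 4 of 12. At 4 h the calls of GSTT2, GSTM6 and GSTA4 were kept in each. The median difference at 24 h was -0.28 for GST, 0.15 for UGT and 0.02 for SULT, against 0.20 for all genes, and after rescaling by the median gene the UGT and SULT medians turned to -0.10 and -0.23. Without the Control group only 1 member was called at 24 h, and without Control at 0 h 4 were. Between 12 and 24 h, 25 of 32 members were higher in each of the 3 groups (68.4% of all genes), and 13 members in Control, 12 in BF and 8 in BA were at least 2-fold higher (11.4%, 7.24% and 7.25% of all genes), while none was at least 2-fold lower (1.35%, 0.916% and 0.894%).

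Within single groups, 28 of 32 members in Control, 29 in BF and 28 in BA were lower at 12 h than at 0 h. Of all 9063 genes, 5670, 4987 and 5733 were. Control had the most members that were at least 2-fold lower. At least 2-fold lower at 12 h than at 0 h were 22 members in Control, 12 in BF and 13 in BA, where 9.56%, 4.85% and 5.46% of all genes were, with median log2 ratios of -1.43, -0.80 and -0.87. The ratio of 12 h to 0 h for SULT2A1, for example, was 0.164 in Control, 0.573 in BF and 0.573 in BA. The 3 groups did not start from the same level at 0 h. GSTA4, GSTT2, GSTT3, GSTM7, GSTA2 and SULT1C3 were at least 2-fold lower at 12 h in all 3 groups. UGT2B in Control was the exception, at least 2-fold higher at 12 h than at 0 h (3.86% of all genes were), and no member was in BF or BA (2.57% and 1.26%). At 4 h the members at least 2-fold lower were 2 in Control, 7 in BF and 5 in BA (5.03%, 6.58% and 12.5% of all genes), GSTT2 in all 3 groups, and none was at least 2-fold higher (3.85%, 4.83% and 4.5%). At 24 h Control had 10 members at least 2-fold lower and 1 higher, UGT2B (3.01% and 8.17%). BF had SULT1C3 and SULT1C2A lower and SULT2AL1 and SULT2A1 higher (1.81% and 9.19%). BA had GSTM7, GSTM3, GSTT2 and SULT1C3 lower and SULT2A1 higher (1.37% and 3.7%). No test of a difference between these time courses is possible with 1 column per group and time.

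Against Control, GSTM2 was the member that passed the test, in BF. By limma with BH adjustment over all genes, BF minus Control called 1 of 32 members lower, GSTM2, and none higher (0.265% and 0.232% of all genes). An unadjusted p under 0.05 was reached by 11 of 32 members and by 1923 of all 9063 genes. GSTM2 was lower in BF by a log2 difference of -1.73 (SE 0.23, limma BH-adjusted p = 0.0244), and it was lower than Control at each of the 4 times in BF and in BA (the values are given above). BA minus Control called none in either direction (0.0662% of all genes lower, 0% higher). An unadjusted p under 0.05 was reached by 15 of 32 members and by 1986 of all 9063 genes. Among the 15 were GSTT3 (log2 -1.65, SE 0.31, limma BH-adjusted p = 0.0888), GSTM2 (log2 -1.52, SE 0.23, limma BH-adjusted p = 0.0789) and GSTM7 (log2 -1.26, SE 0.29, limma BH-adjusted p = 0.0984). The GSTM2 call in BF was lost without Control at 0 h (log2 -1.61, limma BH-adjusted p = 0.106), without Control at 4 h (limma BH-adjusted p = 0.0814) and without BF at 12 h (limma BH-adjusted p = 0.0751), with the sign kept. It was also lost without BF at 0 h, BF at 4 h or BA at 24 h (limma BH-adjusted p = 0.0815, 0.103 and 0.0519), and without all columns at 0, 4 or 24 h (limma BH-adjusted p = 0.121, 0.130 and 0.0844).

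By class, the median log2 difference from Control in BF was -0.41 for GST, -0.30 for UGT and -0.04 for SULT, and in BA -0.65, -0.60 and -0.23, against -0.11 and -0.13 for all genes. Lower than Control at all 4 times were 7 members in BF and 15 in BA, where 26.3% and 28% of all genes were. The 5 that were so in both groups were GSTM1, GSTM2, GSTK1, GSTO1 and GSTT3, all GST genes, a share of 15.6% against 14.3% of all genes. In BA the list held 9 GST genes, 5 of the 7 UGT genes (UGT2B36, UGT2B5, UGT2B37, UGT2B17 and UGT2A3) and, of the SULT genes, SULT1A1. The 2 groups share the Control columns, so their values are given side by side and not as separate evidence.

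**Figure D4:**
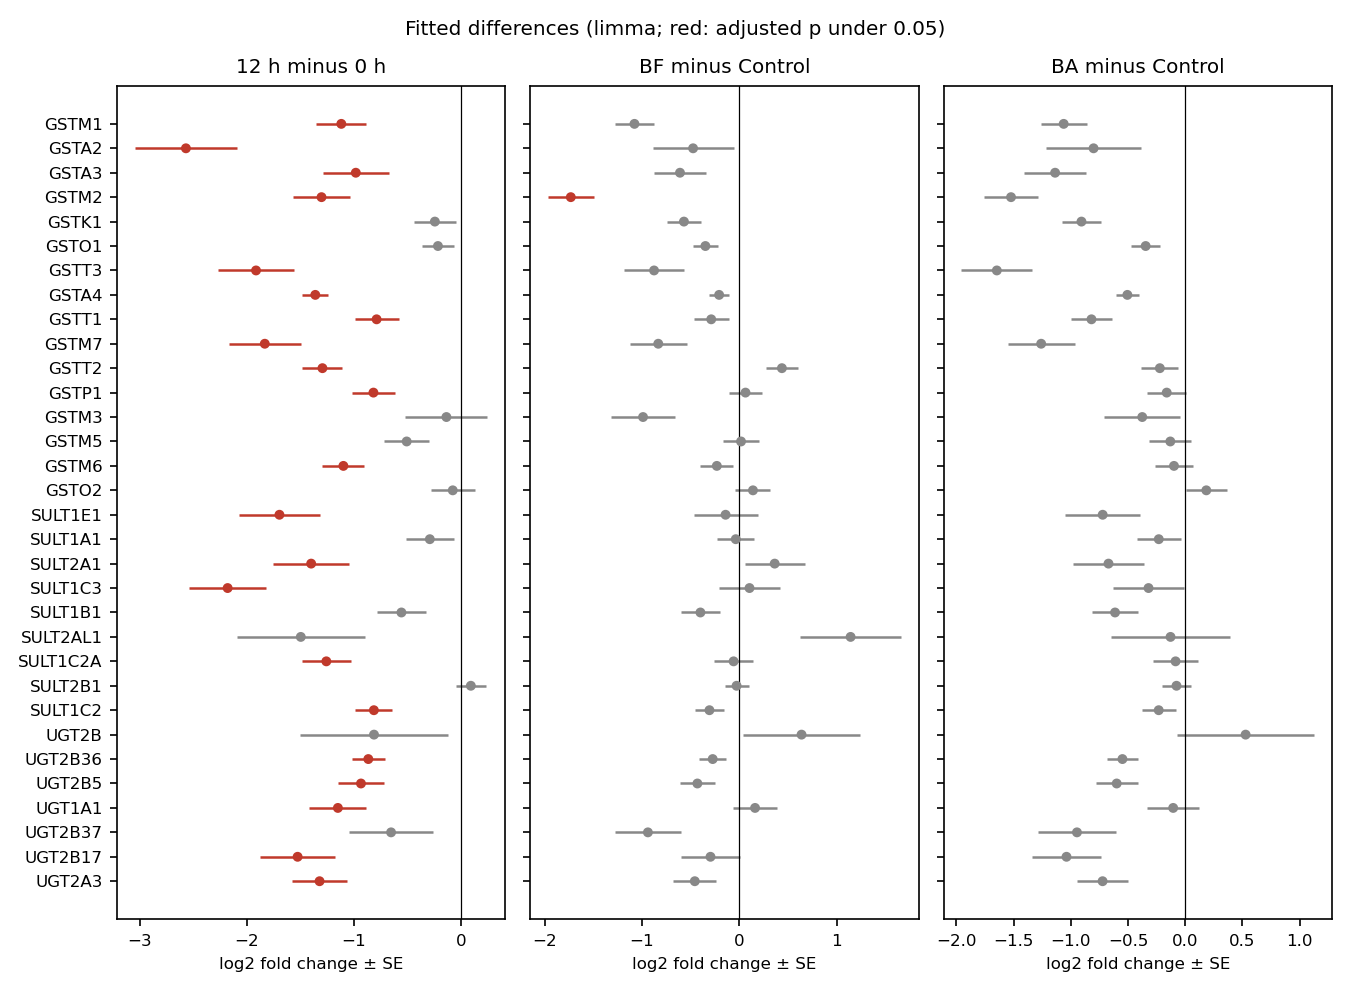
Fitted log2 difference (x axis, own scale in each panel) with its SE (bar) for each of the 32 members (y axis), for 12 h minus 0 h, BF minus Control and BA minus Control; red marks a BH-adjusted p under 0.05 by limma. At 12 h 21 members are red and all lie left of 0, in BF only GSTM2 is red, and in BA none is.

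More members differed 2-fold from Control at 0 and 4 h than later. At 0 h, before PH, 8 members were at least 2-fold lower in BF than in Control and 1 higher (2.21% and 1.62% of all genes), and 10 lower and 1 higher in BA (2.16% and 1.78%). The member that was higher was UGT2B in both. The lower ones in both were GSTM1, GSTM2, GSTM7, GSTK1, GSTA3, UGT2B17 and UGT2B37, with GSTA2 in BF and GSTT3, SULT1E1 and SULT2A1 in BA. At 4 h 9 members were lower in BF (3.06%) and 10 in BA (5.02%), and UGT2B was at least 2-fold higher in BF (1.13%) and no member was in BA (2.02%). At 12 h there were 3 and 2 (1.69% and 1.13%), and SULT2AL1 and SULT2A1 were at least 2-fold higher in BF (1.95%), with none in BA (0.552%). At 24 h there were 2 and 4 (1.26% in each), and none was higher (0.817% and 0.728%). GSTM2 and GSTM3 were the 2 in BF, and the 4 in BA were these with GSTM7 and UGT2A3. The 8 at 0 h in BF became 3 once the columns were rescaled on the median gene. Control at 0 h, the reference of the 0 h ratios, was also the column with the lowest acute phase sum (5.72% of all RPKM, against 15% in BF and 16% in BA at 0 h). Control at 4 h, the reference of the 4 h ratios, had a share of 12.9%, against 20.1% in BF and 16.7% in BA, and the part of these genes in the ratios was not tested.

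BF minus BA called no member in either direction (0.011% of all genes higher, 0% lower). An unadjusted p under 0.05 was reached by 7 of 32 members and by 702 of all 9063 genes. The largest fitted differences were in the bile acid and steroid sulfotransferases, SULT2AL1 (log2 1.27, SE 0.52, limma BH-adjusted p = 0.617) and SULT2A1 (log2 1.03, SE 0.31, limma BH-adjusted p = 0.488). The median over the members was 0.24, against 0.03 for all genes, and 9 members were lower in BA than in BF at each time (10.1% of all genes were), namely GSTA3, GSTA4, GSTT1, GSTT2, GSTT3, SULT2A1, SULT2AL1, UGT2B36 and UGT2B5. At 12 h 6 members were at least 2-fold higher in BF and 2 lower (1.31% and 0.717% of all genes). The 6 were SULT2AL1, GSTA2, SULT1E1, UGT2B17, SULT1C3 and UGT1A1, and this is the BF column that also held acinar transcripts, whose part was not tested. The 2 lower ones were UGT2B and GSTM2. At 0 h GSTM3 was at least 2-fold lower and GSTT3 higher in BF (1.32% and 0.397%), and at 4 h GSTM3 was lower and SULT2A1 and UGT2B higher (2.33% and 2.24%). At 24 h SULT2AL1, UGT2B17, GSTM7 and GSTT2 were higher and none was lower (1% and 0.938%).

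Many of these genes lie side by side. All 32 were matched to RefSeq genes of the rat assembly GRCr8, 28 by symbol and 4 by synonym, and 26 lay in 7 groups of members spaced by at most 500 kb. The largest held 8 genes of both sulfate and glucuronide transfer, SULT1E1, SULT1B1, UGT2A3, UGT2B, UGT2B5, UGT2B17, UGT2B37 and UGT2B36. UGT2B17 is a synonym of 2 RefSeq genes there, Ugt2b15 and Ugt2b1, and UGT2B5 of Ugt2b15 as well, so the place of UGT2B17 is ambiguous and these 2 members may be 1 RefSeq gene. Neighbours did not all move alike: at 12 h SULT1E1, UGT2A3, UGT2B5, UGT2B17 and UGT2B36 fell by the test, while UGT2B, UGT2B37 and SULT1B1 were not called. Of the 6 mu class genes, GSTM1, GSTM2, GSTM6 and GSTM7 fell, and GSTM3 and GSTM5 were not called. All 3 genes of the theta group fell, as did SULT1C3 and SULT1C2A of the SULT1C group. Genes of such groups are close in sequence, and all forms of the UGT1A locus share their last exons, so short reads may be divided between copies. How the authors counted such reads is not given in the sources used here.

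The promoters of 4 members are shown because these genes differ in how they moved: GSTM2 was lower in the fistula groups and at 12 h, GSTA2 had the largest fall at 12 h, UGT2B ran in opposite directions between groups, and GSTP1 was low throughout. Each is the RefSeq GRCr8 sequence from 250 bases before to 50 bases after the start of the gene, 5′ to 3′ on the coding strand, at chr2:198316868-198317167 on the minus strand (GSTM2), chr8:88077043-88077342 on the minus strand (GSTA2), chr14:20985199-20985498 on the plus strand (UGT2B) and chr1:210769656-210769955 on the minus strand (GSTP1). Capitals mark matches on either strand to TGACNNNGC, the core of the antioxidant response element read by NRF2, or to TTGCNNAA, a C/EBP site.
GSTM2: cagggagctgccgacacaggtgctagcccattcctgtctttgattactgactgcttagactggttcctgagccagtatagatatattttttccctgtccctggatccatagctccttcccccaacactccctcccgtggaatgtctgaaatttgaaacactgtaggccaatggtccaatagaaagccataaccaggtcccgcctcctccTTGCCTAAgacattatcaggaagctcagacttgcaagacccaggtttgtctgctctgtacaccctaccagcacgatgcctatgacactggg
GSTA2: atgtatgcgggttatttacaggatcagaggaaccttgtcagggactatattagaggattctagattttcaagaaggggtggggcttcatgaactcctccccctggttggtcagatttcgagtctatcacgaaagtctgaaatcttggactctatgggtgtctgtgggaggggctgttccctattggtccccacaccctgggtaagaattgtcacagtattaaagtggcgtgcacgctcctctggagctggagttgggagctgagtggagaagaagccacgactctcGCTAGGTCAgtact
UGT2B: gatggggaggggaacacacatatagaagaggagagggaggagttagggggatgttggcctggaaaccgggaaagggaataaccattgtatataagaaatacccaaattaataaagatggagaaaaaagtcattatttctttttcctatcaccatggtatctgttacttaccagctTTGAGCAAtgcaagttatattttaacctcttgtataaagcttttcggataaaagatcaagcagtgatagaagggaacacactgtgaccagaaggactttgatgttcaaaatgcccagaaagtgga
GSTP1: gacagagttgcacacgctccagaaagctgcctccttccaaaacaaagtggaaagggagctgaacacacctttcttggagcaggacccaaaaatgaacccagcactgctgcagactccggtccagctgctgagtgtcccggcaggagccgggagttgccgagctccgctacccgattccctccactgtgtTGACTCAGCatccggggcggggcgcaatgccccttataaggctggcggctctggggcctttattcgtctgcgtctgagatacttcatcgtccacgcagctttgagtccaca
The C/EBP match lies 41 bases before the start in GSTM2 and, on the opposite strand, 75 bases before it in UGT2B. The antioxidant response match lies 61 bases before the start in GSTP1 and 37 bases after it, on the opposite strand, in GSTA2. Windows were found for 26 member genes. TGACNNNGC occurred in 5 of them (GSTA2, GSTA3, GSTM5, GSTM7 and GSTP1), 19.2% against 12.1% of 33469 windows. TTGCNNAA occurred in 7 (GSTA3, GSTM2, SULT1C2A, SULT2A1, UGT2A3, UGT2B and UGT2B37), 26.9% against 10.6%. GTTAAT, a core of HNF1 sites, occurred in 3 (GSTA3, UGT1A1 and UGT2A3), 11.5% against 7.45%. A member gene was counted if any of its windows matched, while the share beside it is of single windows, so these shares are not alike in measure. UGT2A3, UGT2B and UGT2B37 are also neighbours. The motifs were chosen after the values had been seen, they may overlap one another, and a match is a string of letters and not a binding site.

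Several genes for transcription factors that regulate conjugation genes also changed with time. Of 14 regulators, 2 were called higher and 6 lower at 4 h, where 12.4% and 31.5% of all genes were. At 12 h none was higher and 8 were lower (8.66% and 21.6%), and at 24 h 2 were lower (5.66%). No group contrast called one. An unadjusted p under 0.05 was reached by 3, 2 and 1 of them in BF minus Control, BA minus Control and BF minus BA. Of all 9063 genes, 1923, 1986 and 702 reached it. NR1I3, which encodes CAR, was at 77.8, 10.2, 6.77 and 26.0 RPKM in Control, at 56.6, 2.37, 13.5 and 16.5 RPKM in BF and at 24.0, 1.70, 11.2 and 25.4 RPKM in BA. In Control and BF the 0 h value was the highest, in BA those at 0 and 24 h were, and NR1I3 fell by 3.37 (SE 0.50, limma BH-adjusted p = 0.00114) at 4 h. CEBPA, a factor of differentiated hepatocytes, fell by 1.49 (SE 0.14, limma BH-adjusted p = 0.000278) at 4 h, and ONECUT1 rose by 1.54 (SE 0.42, limma BH-adjusted p = 0.0166). CEBPB, another C/EBP factor, rose by 0.94 (SE 0.32, limma BH-adjusted p = 0.0386) at 4 h. Its values at 0 and 4 h were 35.7 and 145 RPKM in Control, 35.7 and 36.2 RPKM in BF and 37.0 and 66.2 RPKM in BA. NFE2L2, which encodes NRF2, fell by 1.14 (SE 0.22, limma BH-adjusted p = 0.0034) at 4 h and by 0.90 at 12 h. Which of these bears on the members was not tested.

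Genes of cofactor supply were called in both directions. For comparison, 12.4% of all genes were called higher and 31.5% lower at 4 h, 8.66% and 21.6% at 12 h, and 30% and 5.66% at 24 h. The measured glutathione list held GCLC, GCLM and GSS of its synthesis, GSR, which recycles it, and the microsomal transferases MGST1 and MGST2, and of these 6 genes 4 were called lower at 4 h and 3 lower and 1 higher at 12 h, and at 24 h 2 were higher. GCLM, a subunit of the rate-limiting enzyme of glutathione synthesis, fell by 1.82 (SE 0.36, limma BH-adjusted p = 0.00378) at 4 h and fell by 1.81 at 12 h. GCLC fell by 1.50 at 4 h, and GSS rose by 0.56 at 12 h. The glucuronidation list held UGP2 and UGDH, which make UDP-glucuronic acid, the nucleotide and nucleotide sugar carriers SLC35D1 and SLC35B1, and GUSB, a glucuronidase that cleaves glucuronides. Of these 5 genes, 2 were lower at 4 h, 2 lower and 1 higher at 12 h, and 2 higher at 24 h. GUSB was among the called genes at each time (-0.49, -0.63 and 0.50 at 4, 12 and 24 h). UGDH fell by 0.91 at 4 h, UGP2 fell by 1.80 at 12 h, and SLC35B1 rose by 1.16 at 12 h. Of 6 genes of sulfate donor supply and sulfatases, 1 was higher and 2 lower at 4 h, 1 higher and 3 lower at 12 h, and 1 higher and 1 lower at 24 h. The PAPS synthases went opposite ways, with PAPSS1 higher at 12 h (0.75) and PAPSS2 lower (-0.87).

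Genes of other conjugation routes were called in both directions. The shares of all genes called higher and lower were 12.4% and 31.5% at 4 h, 8.66% and 21.6% at 12 h, and 30% and 5.66% at 24 h. Of 9 genes of methyl, acetyl and amino acid conjugation, 1 was higher and 5 lower at 4 h, 1 higher and 4 lower at 12 h, and 2 higher and 3 lower at 24 h. GLYAT, which joins glycine to acyl groups, fell by 4.19 (SE 0.46, limma BH-adjusted p = 0.000672) at 12 h, BAAT, which conjugates bile acids with glycine or taurine, fell by 2.28 (SE 0.30, limma BH-adjusted p = 0.00124), and the nicotinamide methyltransferase NNMT rose by 2.32 (SE 0.25, limma BH-adjusted p = 0.000428) at 4 h. Of 4 measured conjugate exporters, ABCC6 was called lower at each time (-1.19, -0.88 and -0.52 at 4, 12 and 24 h). ABCC2 and ABCB11 are listed at 0 in all columns, which is not read here as absence from liver. GPX1 is listed at 0 as well, and GAPDH, the housekeeping gene of the study's qPCR, at 0.05 to 0.54 RPKM. Of 9 other targets of the same regulators, 1 was higher and 2 lower at 4 h, 3 lower at 12 h, and 2 higher and 1 lower at 24 h. CYP3A2 fell by 2.30 (SE 0.32, limma BH-adjusted p = 0.00155) and EPHX1 fell by 2.24 (SE 0.29, limma BH-adjusted p = 0.0012) at 12 h. HMOX1, an NRF2 target, rose by 3.09 (SE 0.66, limma BH-adjusted p = 0.00546) at 4 h. Its 4 h values were uneven, 279 RPKM in Control, 158 RPKM in BF and 1182 RPKM in BA. NQO1, TXNRD1 and SRXN1 of the same list were not called at 4 h (log2 -0.24, 0.10 and 0.50). No gene of these lists was called in a group contrast, where 0 to 5 genes a list had an unadjusted p under 0.05. Of all 9063 genes, 1923 did in BF minus Control, 1986 in BA minus Control and 702 in BF minus BA. Markers of cells other than hepatocytes were also called lower at 12 h (limma with BH adjustment), as were 21.6% of all genes. They were 4 of 6 for macrophages, 3 of 6 for stellate cells, 2 of 4 for cholangiocytes and 2 of 3 for endothelial cells. None of 5 hepatocyte, 8 acinar, 2 intestinal or 2 erythroid markers was called lower. Of these 4 lists, 3 hepatocyte markers and none of the other 3 lists had an unadjusted p under 0.05, as 3822 of all 9063 genes had. The lists are short, so their counts are not read against the shares of all genes. The part of these cells in the members' levels was not tested.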

How the data were processed

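Whole liver RNA of male Sprague Dawley rats was sequenced from poly(A) libraries at 4 times after PH in 3 groups. The authors deposited 1 table of RPKM values, in which each column combines 2 runs. The processing notes name CASAVA, Bowtie 0.12.2 and the builds rn4 and mm8 without saying what each was used for, and the counting of reads that match several genes is not given in the sources used here. Samples were grouped by title. No column of another sample was present.

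Genes with a maximum of at least 1 RPKM were tested with limma 3.58.1 in R 4.3.3 (eBayes with trend) on log2(RPKM + 1), with time and group as additive terms, and p-values were adjusted by Benjamini and Hochberg over all 9063 genes. The p-values measure the spread between columns, not between rats. Ratios, totals and plots used Python 3.11.15, pandas 2.3.3, numpy 2.4.6 and matplotlib 3.10.9. On simulated columns with 200 genes changed between BF and Control among 9063, 29.5%, 85% and 98.5% of the changed genes were called at log2 changes of 0.5, 1 and 2, with 1, 7 and 14 false calls. The simulated noise was normal, of each gene's own residual SD, with no time or group-by-time difference and no outlying column. The changed genes were drawn from all but weak genes, while the median residual SD was 0.33 for the members and 0.17 for all genes. These shares therefore do not give the sensitivity for the members.

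The members and all gene lists were chosen with earlier results of these data known. Values in all 12 columns are given for the 3 members of each class with the highest mean and for up to 6 called members in each contrast with the largest difference. Outside the members, up to 3 called genes are named in each list. ALB, CTRB1, CELA1, CYP7A1, CEBPB, NFE2L2, NQO1, TXNRD1, SRXN1 and members named for single-column ratios were added after their values were seen. Alternatives were a pseudocount of 0.1 RPKM, no filter, a filter on the mean, columns rescaled on the median gene, quantile normalization, eBayes without trend and each column, time or group left out. Leaving out BA at 4 h and BF at 12 h together was added after the data were seen. The other tissues and assays of the study were not analysed here.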

Additional observations from a re-analysis of the deposited data

Results flagged for a closer look

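UGT2B moved in opposite directions between groups after PH. The log2 ratio of 12 h to 0 h was 1.373 in Control, -2.754 in BF and -1.058 in BA, and it stands out because Control and the fistula groups differ in sign. The difference was not tested, since each value comes from 2 columns. The Control value at 0 h was 122 RPKM and the BF value at 12 h was 122 RPKM, and the latter column also held pancreatic acinar transcripts.

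The median log2 ratio of 24 h to 0 h over the 9 SULT genes was -0.3282 in Control, 0.1855 in BF and -0.04654 in BA, with opposite signs in Control and BF. The median over all genes tested was 0.21, 0.27 and 0.14 in the same order, so the SULT median lay below it in each group. This difference was not tested either. SULT2A1 and SULT2AL1, at least 2-fold higher at 24 h than at 0 h in BF, and SULT1C3 and SULT1C2A, at least 2-fold lower there, were at opposite ends of the same class.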

How the results depend on the processing

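Under the alternatives that kept all 12 columns, the count of members lower at 12 h was 19 to 21 against 21, and no member was called in BA minus Control or BF minus BA. The 1 member lower in BF minus Control, GSTM2, became 0 without a filter on low values (log2 -1.73, limma BH-adjusted p = 0.0669) and 0 without the BA column at 4 h and the BF column at 12 h. Quantile normalization gave 3 members lower at 4 h in place of 6. At 24 h 1 member was higher with quantile normalization and 1 without those 2 columns, in place of 0. Rescaling on the median gene, which removes median shifts of -0.19 at 4 h, -0.11 at 12 h and 0.20 at 24 h, turned the SULT median of BF minus Control from -0.04 to 0.0019 and the 24 h medians of UGT from 0.15 to -0.096 and of SULT from 0.02 to -0.23. A filter on the mean turned the SULT median of BF minus Control to 0.033. These filters and scales differ in the genes tested or in the level of each column, and no other cause was tested. Of the counts past 2-fold, rescaling gave 3 members lower in BF than Control at 0 h, 2 higher and 1 lower at 24 h, 0 higher and 5 lower in BF at 24 h against 0 h, and 2 lower in BA at 4 h. A pseudocount of 0.1 gave 5 lower in Control at 4 h, 8 lower in BA at 4 h and 2 higher in BA at 24 h, and the filter on the mean gave 1 lower in BF at 24 h. Leaving out 1 column, time or group gave 0 to 2 members lower in BF minus Control, 0 to 1 in BA minus Control, 3 (without BF at 4 h) to 12 (without Control at 4 h) lower at 4 h, 10 (without Control; 13 without its 0 h or 12 h column) to 22 lower at 12 h, 1 (without Control; 3 or 4 without its 24 h or 0 h column, BF, or BF at 0 h) to 8 lower at 24 h and 0 to 2 higher at 24 h. The log2 difference of GSTM2 in BF ranged from -1.87 to -1.60 over these, and its call remained in 7 of 16. The depth of each library is unknown, so the counting error of weak members cannot be given. Time was a term of the fit, so groups were compared within times. No paired analysis by rat was possible because each group and time has 1 column.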
